A study of Mus musculus with 2 samples.

Results

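Sox4, Sox9, Tcf21, Twist1, Twist2, Prrx1, Meox2, Wt1 and Gata6 are transcription factors of the mesenchyme and its lineages, and were 9 of the 31054 genes counted in 2 single-cell libraries of mouse gonadal white adipose tissue (gWAT). The cells came from male p16-CreERT2/R26-LSL-tdTomato mice of 18 months, in which tamoxifen lets a Cre recombinase made from the p16 gene switch on the red protein tdTomato. CD31- CD45- cells of the digested stromal vascular fraction, which lack the endothelial and the leukocyte surface marker, were sorted into Tom+ and Tom- cells, and 1 droplet library was made of each. Both libraries shared the genotype, sex, age, tissue and tamoxifen, and the number of mice behind a library was not given in the sources used here. tdTomato marks cells in which the recombinase was active after tamoxifen and is no measure of p16 RNA at the time of the sort.

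A barcode was taken as a cell where it held more than 1000 and under 7000 genes and under 8% mitochondrial UMIs (unique molecular identifiers, each standing for 1 captured RNA molecule), which left 3524 Tom+ and 6717 Tom- cells. Cells with at least 10 UMIs of Msln, Upk3b, Krt19, Lrrn4 and Upk1b together were called mesothelial, and cells with under 5 were called stromal. There were 3263 stromal and 250 mesothelial Tom+ cells, and 4800 stromal and 1887 mesothelial Tom- cells. The 11 Tom+ and 30 Tom- cells between these limits held Wt1 at 331 and 449 CPM and Gata6 at 129 and 149.7 CPM. The 9 genes were chosen with their levels in these cells known, so that what follows is a description and no test. A level is given in CPM, the UMIs of a gene per 1000000 UMIs summed over a group of cells. With 1 library per condition there was no replicate error, and the intervals in brackets are exact at 95%, Poisson for a level and conditional binomial for a ratio, and cover counting error only. Fewer cells that make an RNA and less of it per cell cannot be told apart in a summed level.

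These factors act in the formation of connective tissue and of the linings of the body cavities. Sox4 and Sox9 belong to the SOX family, which binds DNA through a high mobility group box. Sox9 directs cartilage formation, and Sox4 acts in progenitors of many tissues. Tcf21, Twist1 and Twist2 are basic helix-loop-helix (bHLH) proteins, which bind E-boxes as dimers with E proteins such as Tcf4 and are opposed by the Id proteins. Prrx1 and Meox2 are homeobox proteins of limb and somite mesenchyme. Wt1, a zinc finger protein, marks the mesothelium and progenitors of visceral fat, and Gata6, a zinc finger protein of the GATA family, acts in heart and endoderm formation.

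RefSeq promoters of GRCm38.p6, from 250 bases before to 50 bases after the start of a gene, were matched for 6 of the 9 genes, namely Sox4, Tcf21, Twist1, Twist2, Prrx1 and Meox2, and not for Sox9, Wt1 and Gata6. Shown is the promoter of Sox4 (chr13:28953650-28953949, minus strand), the gene with the largest ratio between the libraries in stromal cells. Also shown are those of Twist1 (chr12:33957421-33957720, plus strand) and Twist2 (chr1:91801211-91801510, plus strand), paralogs that differed in their ratio of mesothelial over stromal cells. Capitals mark CCAAT on either strand in Sox4, and GGGCGG on either strand in Twist1 and Twist2.
Sox4: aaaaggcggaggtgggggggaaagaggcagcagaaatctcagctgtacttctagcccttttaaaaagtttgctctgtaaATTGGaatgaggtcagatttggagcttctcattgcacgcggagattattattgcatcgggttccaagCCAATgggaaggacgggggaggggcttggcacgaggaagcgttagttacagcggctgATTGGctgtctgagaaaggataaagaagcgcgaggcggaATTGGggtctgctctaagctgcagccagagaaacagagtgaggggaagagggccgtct
Twist1: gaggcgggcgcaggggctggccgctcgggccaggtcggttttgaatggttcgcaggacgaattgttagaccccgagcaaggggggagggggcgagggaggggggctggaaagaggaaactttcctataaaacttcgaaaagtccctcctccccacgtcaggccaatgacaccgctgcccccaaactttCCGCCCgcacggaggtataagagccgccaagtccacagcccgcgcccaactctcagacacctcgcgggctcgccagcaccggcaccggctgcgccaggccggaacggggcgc
Twist2: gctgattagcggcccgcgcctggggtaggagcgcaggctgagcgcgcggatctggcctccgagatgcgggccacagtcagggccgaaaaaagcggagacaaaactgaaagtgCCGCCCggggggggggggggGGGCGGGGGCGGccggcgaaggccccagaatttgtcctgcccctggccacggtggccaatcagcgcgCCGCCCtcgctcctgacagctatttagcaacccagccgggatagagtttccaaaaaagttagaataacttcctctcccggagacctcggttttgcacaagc
The Sox4 promoter held 4 matches of CCAAT and none of GGGCGG, where 37.4% and 35.7% of all 32851 promoters of this length held at least 1. GGGCGG was found 4 times in Twist2 and 1 time each in Twist1 and Meox2, and CCAAT was found 1 time in each of Twist1 and Twist2. The E-box CANNTG, held by 72.3% of all promoters, was found 1 time each in Sox4 and Meox2 and not in Tcf21, Twist1, Twist2 and Prrx1. TATAAA, held by 13.6%, was found 1 time each in Twist1 and Meox2. The letters were sought on both strands, and overlaps between motifs were not removed.

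In the GENCODE annotation of GRCm38 all 9 were protein-coding. Sox4 lay on chromosome 13 (28948919 to 28953713, minus strand), Sox9 on chromosome 11 (112782224 to 112787760, plus strand) and Tcf21 on chromosome 10 (22817281 to 22820174, minus strand). Twist1 lay on chromosome 12 (33957671 to 33959829, plus strand), Twist2 on chromosome 1 (91801461 to 91848028, plus strand) and Prrx1 on chromosome 1 (163245119 to 163313710, minus strand). Meox2 lay on chromosome 12 (37108540 to 37179534, plus strand), Wt1 on chromosome 2 (105126529 to 105173616, plus strand) and Gata6 on chromosome 18.

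Some facts of the libraries touch all levels. The summed UMIs were 51104409 in Tom+ and 57883866 in Tom- stromal cells, and 5322983 and 32355904 in mesothelial cells, at medians of 11270 to 18601.5 per cell. The barcode lists shared 2224 barcodes; of these, 404 stromal and 100 mesothelial Tom+ cells and 75 and 207 Tom- cells passed the limits, and 9 barcodes passed in both. Igkc, Ighm and Jchain together took 5.97% of the UMIs of Tom+ and 1.44% of those of Tom- stromal cells. Of 11 immune markers, 8 of 8 counted were past 1.5-fold higher in Tom+ stromal cells, and they summed to 60148 and 14628 CPM in stromal and 1373 and 725 CPM in mesothelial cells, where Cd79b and Ms4a1 were at 0 in the Tom+ library. The stromal class is defined by few mesothelial marker UMIs, and so it held 132 Tom+ and 55 Tom- cells led by immunoglobulin genes and 47 and 32 cells led by Lyz2 and C1qa. Of the markers that the class limits did not use, 8 of 8 mesothelial markers were more than 2-fold higher in mesothelial cells in each library, and 9 of 10 stromal progenitor markers were lower.

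Mesothelial cells held more Gata6 and Wt1 than stromal cells, and less of Prrx1, Sox9, Tcf21, Twist2 and Meox2. In the Tom+ library 2 of 9 members were more than 2-fold higher in mesothelial cells, where 13.1% of 10240 genes whose mean over both sums reached 5 CPM were, and 6 of 9 were lower, where 10.1% were. In the Tom- library 1 of 9 was higher, where 11.9% of 10019 genes were, and 5 of 9 were lower, where 9.22% were. The median log2 ratio of mesothelial over stromal was -2.92 and -2.67 over the members, in the Tom+ and Tom- library, and 0.11 and 0.14 over all genes. Median-of-ratios size factors moved the medians of all genes to -0.044 and -0.018 and left these member counts as they were.

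**Figure D1:**
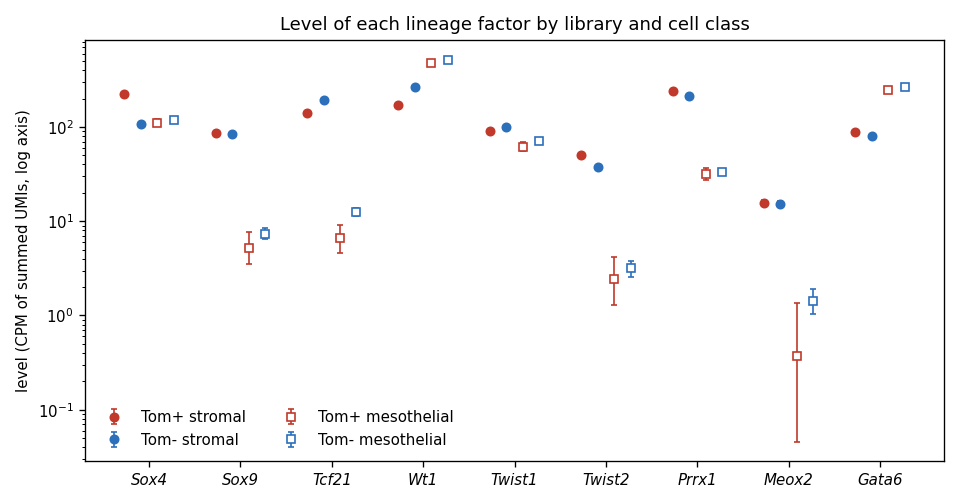
Level of the 9 genes in CPM of summed UMIs (log axis) in stromal cells (filled circles) and mesothelial cells (open squares) of the Tom+ (red) and Tom- (blue) library, with exact Poisson 95% intervals. Wt1 and Gata6 have both squares above both circles, and Sox9, Tcf21, Twist2, Prrx1 and Meox2 have both squares far below.

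Of the zinc finger members, Gata6 held 248 CPM (234 to 261) in Tom+ mesothelial cells and 266 CPM (260.5 to 272) in Tom- ones, and 87.3 CPM (84.8 to 89.9) and 79.6 CPM (77.3 to 82.0) in stromal cells. Both mesothelial levels lay above both stromal levels, and their own intervals overlapped. The log2 ratio of mesothelial over stromal was 1.504 (1.41 to 1.59) in the Tom+ and 1.74 (1.69 to 1.79) in the Tom- library. With each cell thinned to 7563 UMIs, so that depth was alike, 77.7% of Tom+ and 79.3% of Tom- mesothelial cells had a Gata6 UMI, and 42.3% and 36.8% of stromal cells. Before thinning these shares were 95.2%, 91.0%, 59.0% and 47.2%. Thus Gata6 RNA was met in both classes and more often in mesothelial cells.

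Wt1 held 478 CPM (459 to 497) in Tom+ mesothelial cells and 513 CPM (506 to 521) in Tom- ones, and 170.2 CPM (167 to 174) and 263 CPM (259 to 268) in stromal cells. None of these 4 intervals overlapped the next in order. The log2 ratio of mesothelial over stromal was 1.49 (1.42 to 1.55) in the Tom+ and 0.96 (0.93 to 0.995) in the Tom- library, just under 2-fold in the latter. A Wt1 UMI was seen in 94.3% of Tom+ and 95.1% of Tom- thinned mesothelial cells, and in 56.1% and 69.0% of thinned stromal cells (68.4% and 75.8% before thinning). Wt1 RNA was thus met in most stromal cells as well as in nearly all mesothelial cells.

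Of the bHLH members, Tcf21 and Twist2 were low in mesothelial cells and Twist1 was less than 2-fold lower. Tcf21, which is known from fibroblasts of the heart, kidney and visceral fat, held 142 CPM (139 to 145) in Tom+ stromal cells and 195 CPM (192 to 199) in Tom- ones, and 6.58 CPM (4.58 to 9.14) and 12.6 CPM (11.4 to 13.9) in mesothelial cells. Twist2 held 50.3 CPM (48.3 to 52.2) and 37.9 CPM (36.3 to 39.5) in stromal and 2.44 CPM (1.30 to 4.18) and 3.15 CPM (2.57 to 3.83) in mesothelial cells. The log2 ratios of mesothelial over stromal were -4.43 and -3.95 for Tcf21 and -4.36 and -3.59 for Twist2. Twist1, the paralog of Twist2 that acts in cranial and limb mesenchyme, held 90.5 CPM (87.9 to 93.1) and 99.5 CPM (97.0 to 102) in stromal and 61.6 CPM (55.1 to 68.7) and 71.5 CPM (68.6 to 74.5) in mesothelial cells, with log2 ratios of -0.55 (-0.72 to -0.39) and -0.48 (-0.55 to -0.41). A Twist1 UMI was seen in 47.4% and 46.6% of thinned stromal and 37.7% and 37.5% of thinned mesothelial cells, where the shares with a Twist2 UMI were 29.8%, 23.1%, 1.21% and 1.51%.

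Both homeobox members and Sox9 were lower in mesothelial cells. Prrx1 held 243 CPM (238 to 247) in Tom+ stromal cells and 213 CPM (209 to 217) in Tom- ones, and 31.9 CPM (27.3 to 37.1) and 33.3 CPM (31.4 to 35.4) in mesothelial cells, log2 ratios of -2.92 and -2.67. Meox2 held 15.8 CPM (14.7 to 16.9) and 15.4 CPM (14.4 to 16.5) in stromal cells. In mesothelial cells Meox2 rested on 2 UMIs in the Tom+ and 46 UMIs in the Tom- library, with log2 ratios of mesothelial over stromal of -5.39 (-8.44 to -3.53) and -3.44 (-3.90 to -3.01). Meox2 was therefore at the edge of what this depth can show in mesothelial cells. Sox9 held 86.0 CPM (83.5 to 88.6) and 84.3 CPM (82.0 to 86.7) in stromal and 5.26 CPM (3.50 to 7.60) and 7.39 CPM (6.48 to 8.38) in mesothelial cells, log2 ratios of -4.03 and -3.51.

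Sox4 was 2-fold lower in mesothelial than stromal cells in the Tom+ library and not in the Tom- library, a difference between libraries that was not tested. It held 223 CPM (219 to 228) in Tom+ stromal cells and 108 CPM (105 to 111) in Tom- ones, and 111 CPM (102 to 119.96) and 118 CPM (114 to 122) in mesothelial cells. The mesothelial levels overlapped each other in their intervals and the lower one overlapped the Tom- stromal level, so that the Tom+ stromal level stood alone above the other 3. The log2 ratio of mesothelial over stromal was -1.01 (-1.14 to -0.89) in the Tom+ library, which came to -0.99 and so under 2-fold with mitochondrial UMIs under 5%. In the Tom- library it was 0.13 (0.073 to 0.19), and -0.025 by median-of-ratios size factors.

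The members that were low in mesothelial cells were set beside the 10 stromal progenitor markers. The median log2 ratio of mesothelial over stromal of these markers was -2.84 in the Tom+ and -2.98 in the Tom- library. Prrx1 lay near this median in each library. Sox9, Tcf21 and Twist2 lay below it, nearer to the markers Dpt and Lum, and Meox2 in the Tom+ library lay below these as well. Dpt and Lum, matrix genes of fibroblasts, had log2 ratios of mesothelial over stromal of -4.48 and -4.69 in the Tom+ and -3.79 and -3.50 in the Tom- library, and the progenitor marker Pdgfra had -3.04 and -2.46. Thinned mesothelial cells had a Dpt UMI in 13.8% and 14.3%, a Sox9 UMI in 3.64% and 3.69% and a Tcf21 UMI in 2.43% and 4.98%. In thinned stromal cells these shares were 96.2% and 95.8% for Dpt, 30.9% and 30.0% for Sox9, and 46.0% and 54.2% for Tcf21. The mesothelial shares of these genes are thus not on 1 scale and were not ranked. How much of the low mesothelial levels came from RNA of other cells was not tested. Leaving out the 122 Tom- cells that Scrublet called doublets moved the Tom- ratio of Tcf21 to -4.80, of Sox9 to -4.42, of Twist2 to -4.53 and of Meox2 to -5.53. Scrublet called 2 of 3524 Tom+ cells, so that leaving them out could change little in that library. Without the barcodes listed in both libraries, the member counts past 2-fold came to the same numbers.

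Between the libraries, Sox4 was 2.07-fold higher and Wt1 1.55-fold lower in Tom+ stromal cells, and the other 7 members were under 1.5-fold. Thus 1 of 9 members was past 1.5-fold higher, where 3.86% of 9778 genes were, and 1 of 9 was lower, where 3.25% were. By median-of-ratios size factors 2.55% of genes were higher and 4.10% lower, and the log2 ratios of Sox4 and Wt1 were 0.97 and -0.71. The members had a median log2 ratio of 0.033, Tom+ over Tom-, and all genes one of 0.071.

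Sox4 rested on 11419 UMIs in Tom+ and 6245 UMIs in Tom- stromal cells, 223 and 108 CPM. Its log2 ratio of Tom+ over Tom- was 1.05 (1.01 to 1.10), at percentile 99.2 of the genes counted. A Sox4 UMI was seen in 49.6% of Tom+ and 28.4% of Tom- thinned stromal cells, and in 58.4% and 33.7% before thinning. The shares went the same way as the level. Wt1, at 170.2 and 263 CPM, had a log2 ratio of -0.63 (-0.67 to -0.59), at percentile 2.83. It lay close to the limit of 1.5-fold and came to -0.51 without the barcodes listed in both libraries, to -0.54 without the immunoglobulin and Lyz2 clusters, and to -0.55 without cells over 1% immunoglobulin UMIs, each under 1.5-fold. Sox4 came to 1.14, 1.16 and 1.14 in the same cells. Mesothelial markers went the same way as Wt1 in stromal cells of the Tom+ and Tom- library, with the 5 genes of the rule at 6.63 and 27.3 CPM, 8 other markers at 47.5 and 80.1 CPM, and a UMI of Nkain4 in 11.2% and 18.9% of thinned cells. Their part in the difference of Wt1 was not tested.

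The other stromal members lay closer together in the 2 libraries. Tcf21, at 142 and 195 CPM, had a log2 ratio of -0.46 (-0.50 to -0.42), and Twist2, at 50.3 and 37.9 CPM, one of 0.41 (0.33 to 0.49). Prrx1 had 0.19 (0.15 to 0.22), Gata6 0.13 (0.073 to 0.19) and Twist1 -0.14 (-0.19 to -0.082). Sox9 had 0.029 (-0.030 to 0.088) and Meox2 0.033 (-0.11 to 0.17), intervals that held 0. The signs of Sox9, Twist1 and Meox2 changed under at least 1 other way of choosing or weighting the cells, and those of Tcf21, Twist2, Prrx1 and Gata6 did not.

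In mesothelial cells 1.87% of 10014 genes were past 1.5-fold higher in the Tom+ library and 1.16% lower (1.37% and 1.74% by median-of-ratios size factors). Of the 7 members counted, 0 were higher and 1 was lower. The 1 was Tcf21, at 6.58 and 12.6 CPM, with a log2 ratio of -0.94 (-1.48 to -0.44) that came to -0.30 without Scrublet doublets. Wt1 had -0.10 (-0.16 to -0.044), Gata6 -0.10 (-0.19 to -0.020) and Sox4 -0.095 (-0.22 to 0.031), each within 1.5-fold. Twist1 had -0.21 (-0.39 to -0.047) and Prrx1 -0.062 (-0.30 to 0.17). Sox9, on 28 and 239 UMIs, had -0.49 (-1.11 to 0.078), and -1.48 without the barcodes listed in both libraries. Twist2 and Meox2 had a mean under 5 CPM and were not counted. The median log2 ratio was -0.21 over all 9 members, with Twist2 and Meox2 among them, and 0.032 over the 10014 genes counted. Over the 7 members counted the middle value was that of Wt1, -0.10.

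**Figure D2:**
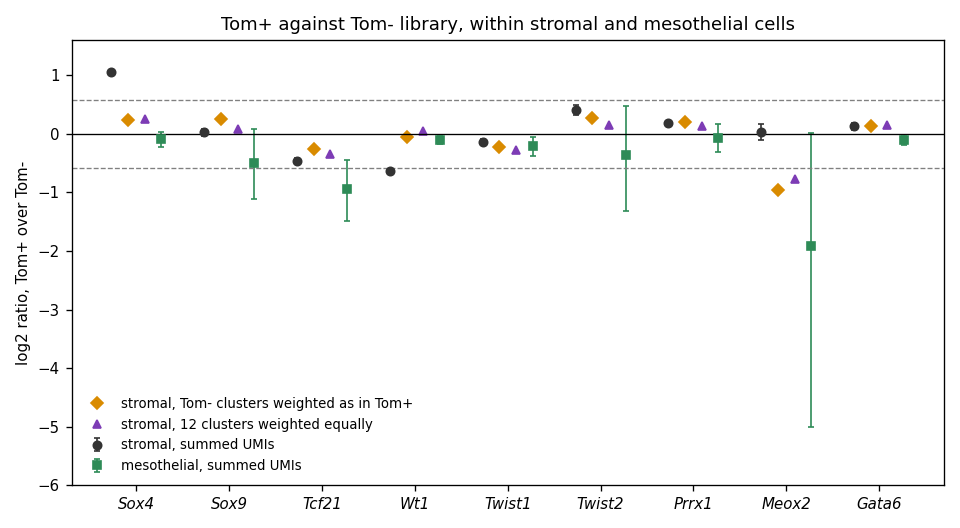
Log2 ratio of Tom+ over Tom- for each gene in stromal cells (black circles) and mesothelial cells (green squares), with exact conditional 95% intervals, and in stromal cells with the Tom- clusters weighted as in Tom+ (orange diamonds) or all 12 clusters weighted equally (purple triangles), which have no interval. Dashed lines mark 1.5-fold; Sox4 goes from 1.05 to 0.23 and Wt1 from -0.63 to -0.048 once clusters are weighted alike, and Meox2 from 0.033 to -0.97.

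Stromal cells of both libraries were divided into 12 clusters without use of the 9 members, numbered by the share of their cells that came from the Tom+ library. That share ran from 82.3% in cluster 1, led by Rab3b and Chchd10, to 13.6% in cluster 12, led by Ccl21a and Elane. Cluster 2 (74.2%) was led by Gsc and Aspn, cluster 4 (70.1%) by Gm13305 and Pi15, and cluster 5 (63.8%) by Sema3c and Sema3e, with Dpp4 among its leading genes. Clusters 8, 9, 10 and 11, at 15.3% to 26.9% Tom+, were led by Nptx2, Thbd, G0s2 and Cpxm2 in turn. Clusters 3 and 6 were the immunoglobulin and Lyz2 clusters. Cluster 7, led by interferon-induced genes such as Rsad2, held 15 Tom+ cells. It is left out where libraries are compared within single clusters, and kept where clusters are weighted.

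The members had different places among the clusters. Sox4 was highest in cluster 1 at 478 CPM, then in cluster 2 at 304 and cluster 4 at 240.3 CPM, with no overlap between these intervals, and lay at 80.3 to 127 CPM in clusters 8 to 12. Wt1 went the other way, with 428 CPM in cluster 11 and 421 CPM in cluster 12, which overlapped, and 83.8 CPM in cluster 2. Sox4 was thus highest in clusters made mostly of Tom+ cells and Wt1 in clusters made mostly of Tom- cells, though not every cluster followed this. Wt1 held 164 CPM in cluster 10, made mostly of Tom- cells, and 195 CPM in cluster 4. Sox4 held 33.9 and 122 CPM in clusters 3 and 6, made mostly of Tom+ cells. Tcf21 was highest in cluster 8 at 389.6 CPM and cluster 5 at 296 CPM, and held 25.9 CPM in cluster 2. Sox9 was highest in cluster 10 at 177 CPM, and Prrx1 in cluster 5 at 337 and cluster 1 at 316 CPM. Twist2 was highest in cluster 2, at 81.6 CPM, and Gata6 in cluster 12, at 172 CPM. These levels sum both libraries, and for Prrx1, Meox2 and Twist1 the order within a library was another one. Prrx1 was highest in cluster 5 in Tom+ cells, at 354 CPM, and in Tom- cells clusters 11, 5 and 1 lay at 301, 299.5 and 296 CPM. Meox2 was highest in cluster 2 in Tom+ cells, at 41.9 CPM, and in cluster 4 in Tom- cells, at 110.3 CPM. Twist1 was highest in cluster 1 in both libraries, at 113 and 153 CPM in turn, although the sum put cluster 12 first at 134 CPM, with 93.7 and 142 CPM in the libraries. In cluster 3, where Igkc, Ighm and Jchain took 53.0% of UMIs, each of the 9 had its lowest summed level.

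**Figure D3:**
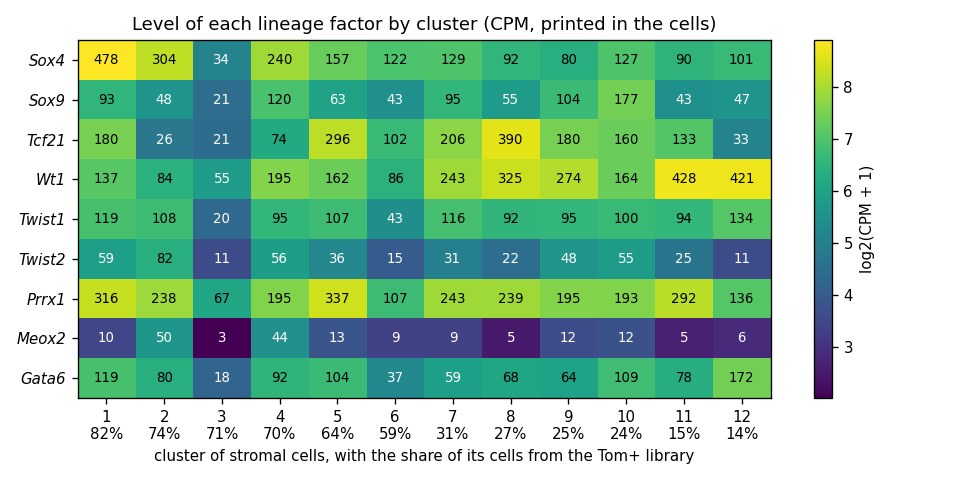
Level of the 9 genes in the 12 clusters of stromal cells (columns, both libraries summed), coloured by log2(CPM + 1) with the CPM printed, and under each cluster number the share of its cells from the Tom+ library. Sox4 is highest on the left, where most cells were Tom+, and Wt1 on the right.

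Within clusters the libraries differed in both directions in Sox4 and Wt1. Over the 11 clusters with at least 30 cells in each library, Sox4 was higher in Tom+ cells in 8, with an interval above 0 in 6 and below 0 in 1, and its mean log2 ratio was 0.36. In cluster 1, where it was highest, Sox4 held 464 CPM (449 to 479) in Tom+ cells and 557 CPM (519 to 598) in Tom- cells, a log2 ratio of -0.26 (-0.38 to -0.15). In cluster 9 it held 120.4 and 64.9 CPM, a log2 ratio of 0.89 (0.75 to 1.03). The summed Sox4 ratio thus lay on both sides of 0, with intervals that cover counting error only, and the difference between clusters was not tested. Wt1 was higher in Tom+ cells in 5 of 11 clusters, with an interval above 0 in 3 and below 0 in 4. Its mean was -0.17, with ratios from -1.60 in cluster 6 to 0.66 in cluster 4. The lowest 2 ratios, -0.71 in cluster 3 and -1.60 in cluster 6, were those of the immunoglobulin and Lyz2 clusters. The sign of this mean thus rests in part on these clusters. The other 2 intervals below 0 were those of clusters 5 and 9, at -0.28 and -0.30. Tcf21 was higher in 3 of 11, with an interval below 0 in 7 and a mean of -0.30. Twist1 was higher in 2 of 11, with an interval above 0 in 0 and below 0 in 6. Twist2 had an interval above 0 in 4 clusters and below 0 in 0, and Gata6 in 3 and 0.

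Weighting the clusters alike gave smaller ratios for Sox4 and Wt1. With the Tom- clusters weighted by the shares of UMIs that they had in the Tom+ library, Sox4 came to 190.5 CPM in the Tom- library, against 108 CPM as summed and 223 CPM in the Tom+ library, which left a log2 ratio of 0.23. Wt1 came to 176 CPM, against 263 CPM as summed and 170.2 CPM in the Tom+ library, so that the log2 ratio was -0.048. With the 12 clusters weighted equally, cluster 7 with its 15 Tom+ cells among them, the log2 ratios were 0.26 for Sox4 and 0.043 for Wt1. Neither gene was past 1.5-fold under these weightings. Tcf21 had log2 ratios of -0.26 and -0.35 under both in turn, and Twist2 0.27 and 0.15. A change of cluster shares through the sort and one through the making of a library cannot be told apart here, since each sort is 1 library.

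Meox2 was alike in the summed stromal cells and differed within the clusters in which it was highest. In cluster 4 it held 17.8 CPM (14.4 to 21.7) in 340 Tom+ cells and 110.3 CPM (96.6 to 125) in 145 Tom- cells, a log2 ratio of -2.63 (-2.99 to -2.28). In cluster 2 it held 41.9 CPM (37.7 to 46.6) in Tom+ cells and 76.1 CPM (65.5 to 87.9) in Tom- cells, a log2 ratio of -0.86 (-1.12 to -0.60). Both clusters were made mostly of Tom+ cells. A summed Meox2 level there that was lower in Tom+ than in Tom- cells thus went with a larger share of these clusters in the Tom+ library. Weighted by the Tom+ shares of UMIs, Meox2 came to 30.8 CPM in the Tom- library against 15.8 CPM in the Tom+ library, so that the log2 ratio was -0.97, and equal weights gave -0.78. Among the other 9 clusters the interval excluded 0 in cluster 12 alone, at 2.16 (0.58 to 3.70) on 8 Tom+ and 9 Tom- UMIs.

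**Figure D4:**
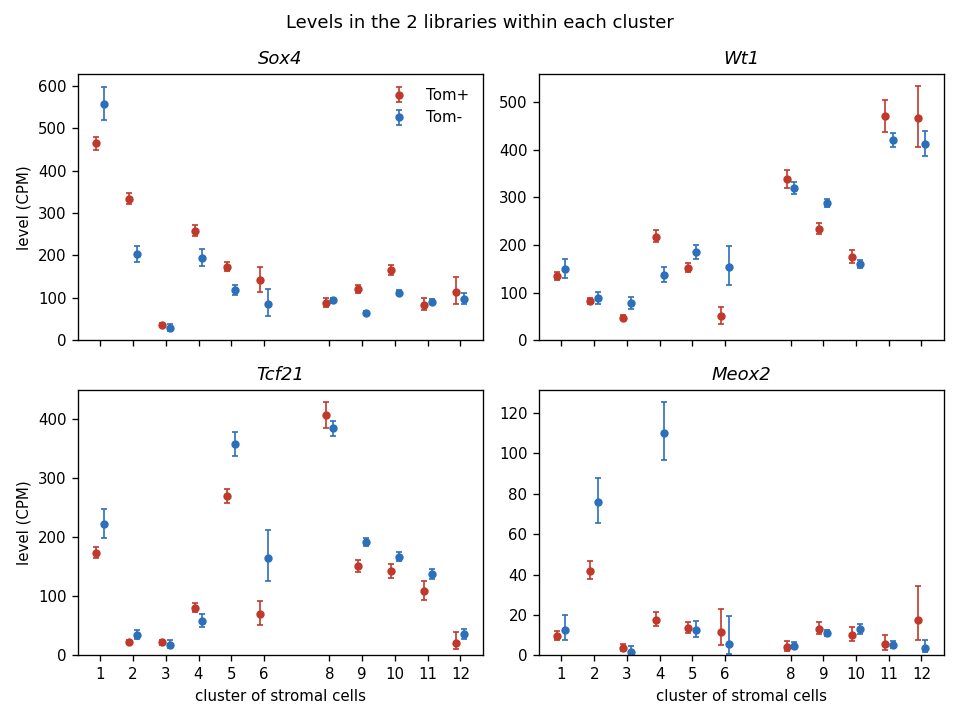
Level in CPM of Sox4, Wt1, Tcf21 and Meox2 in the Tom+ (red) and Tom- (blue) cells of each cluster, with exact Poisson 95% intervals; cluster 7 is left out for its 15 Tom+ cells. In cluster 4 Meox2 lies at 110.3 CPM in Tom- cells, against 17.8 CPM in Tom+ cells, the widest gap of the 4 genes on the log2 scale.

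Within the Tom+ library, levels were also read by the tdTomato UMIs of a cell. A tdTomato UMI was seen in 20.5% of Tom+ and 9.01% of Tom- thinned stromal cells, and in 71.3% and 4.92% of thinned mesothelial cells. Thus Tom- cells held tdTomato UMIs too, and most Tom+ stromal cells held none. Of the Tom+ stromal cells, 2329 had no tdTomato UMI, 451 had 1 and 483 had 2 or more, and 128 of the last belonged to cluster 3, so that clusters 3 and 6 were left out here. In the rest, Sox4 held 254 CPM (249 to 259.6) in 2306 cells with no tdTomato UMI, 252 CPM (239.7 to 264) in 438 cells with 1, and 192 CPM (179.6 to 204) in 340 cells with 2 or more. In the 196 cells with 5 or more, a limit chosen after the values were seen, it held 115 CPM (102 to 129), near the 108 CPM of Tom- stromal cells. Wt1 held 180.4 CPM (176 to 185) with no tdTomato UMI, 231 CPM (218 to 245) with 2 or more and 258 CPM (238 to 278) with 5 or more, near the 263 CPM of Tom- stromal cells. Prrx1 held 272 CPM (266 to 277), 230.4 CPM (217 to 244) and 192 CPM (175 to 209.8) in the same cells. Outside clusters 3 and 6 the Tom+ cells with most tdTomato RNA were thus closer to all Tom- stromal cells in Sox4 and Wt1 than those with none. The Tom- level here holds clusters 3 and 6 and another mix of clusters, so that this nearness is not one within clusters. With clusters 3 and 6 kept, Wt1 went from 179 CPM (175 to 184) in cells with no tdTomato UMI to 114 CPM (107 to 122) with 5 or more. Sox4 went from 252 CPM (247 to 257) to 66.9 CPM (61.3 to 72.9) in the same cells. There Igkc, Ighm and Jchain took 0.12% of UMIs with no tdTomato UMI and 37.1% with 5 or more. Without clusters 3 and 6 they took 0.086% and 0.096%. Such UMIs are part of the total behind a CPM and lower the CPM of other genes, and their part in the fall of Wt1 was not tested. Without these clusters Twist1 and Gata6 had overlapping intervals throughout, from 100.2 CPM (96.9 to 104) and 95.6 CPM (92.3 to 99.0) with none to 91.2 CPM (79.9 to 104) and 86.1 CPM (75.1 to 98.3) with 5 or more.

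Clusters differed along tdTomato too, as clusters 8 to 12 held 138 of the 196 cells with 5 or more tdTomato UMIs and 842 of the 2306 cells with none. Within clusters 8 to 12, Sox4 held 65.7 CPM (54.2 to 78.8) in the former and 125 CPM (118 to 131) in the latter, and Wt1 320.4 CPM (294 to 348) and 264 CPM (255 to 274). Both differences went the same way as without clusters 3 and 6. The Wt1 difference went the opposite way to the one over all clusters, where the share of immunoglobulin UMIs differed as given above. Tom- cells of the single clusters 8 to 12 lay at 64.9 to 112 CPM for Sox4 and at 160 to 420 CPM for Wt1. Whether the cells with most tdTomato RNA were nearer to Tom- cells within these clusters was not tested. Median depth was 11898.5 and 12998 UMIs per cell, and its part was not tested. In Tom+ mesothelial cells, 169 of which had 2 or more tdTomato UMIs, Wt1 held 479 CPM (456 to 503) in these and 486 CPM (449 to 526) in the 52 cells with none, intervals that overlapped.

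**Figure D5:**
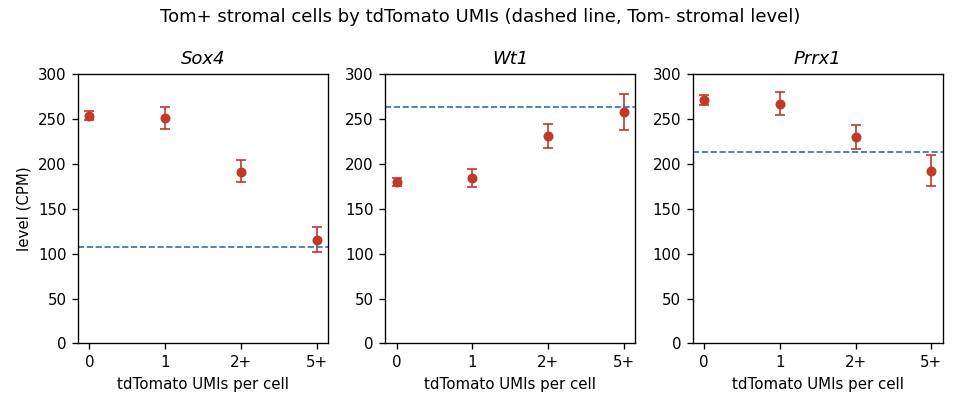
Level in CPM of Sox4, Wt1 and Prrx1 in Tom+ stromal cells outside clusters 3 and 6, by tdTomato UMIs per cell (0, 1, 2 or more, and 5 or more, which is part of the group before it), with exact Poisson 95% intervals; the dashed line is the level in all Tom- stromal cells, with clusters 3 and 6 kept. Sox4 lies at 254 CPM with none and 115 CPM with 5 or more, and Wt1 at 180.4 and 258 CPM, both nearer the dashed line. With clusters 3 and 6 kept, Wt1 went from 179 to 114 CPM, away from that line. Igkc, Ighm and Jchain then took 0.12% and 37.1% of UMIs.

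Single cells held several members at a time. Thinned stromal cells had a UMI of 3.87 members on average in the Tom+ and 3.66 in the Tom- library, and mesothelial cells of 2.72 and 2.78. Tcf21 and Meox2 were met together in 2.61% of Tom+ and 2.62% of Tom- stromal cells, 0.72 and 0.73 of the product of their shares. The ratio to that product was 1.24 and 1.25 for Sox4 and Meox2, and 1.23 and 1.21 for Twist2 and Meox2. With Meox2 it was 0.81 and 0.86 for Wt1, 0.92 and 0.73 for Gata6, and 1.04 and 1.02 for Twist1. Pairs of Meox2 thus went below the product with Tcf21, Wt1 and Gata6 in each library. They went above it with Sox4, Twist2 and, by little, Twist1, as a description over cells. All stromal clusters were pooled here, and the part of the cluster levels was not tested.

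Genes that act with these factors were read from lists, whose counts stand beside the shares of all genes past the fold. Between classes 13.1% were higher and 10.1% lower in mesothelial cells of the Tom+ library, and 11.9% and 9.22% in the Tom- library. Between libraries 3.86% were higher and 3.25% lower in Tom+ stromal cells, and 1.87% and 1.16% in Tom+ mesothelial cells. A count of 0 or 1 in a list this short cannot be set apart from these shares. Of 7 partners and inhibitors of bHLH factors, 0 were past 1.5-fold between the libraries in stromal cells and 0 in mesothelial cells, in either direction. Between classes, 2 of 7 were more than 2-fold higher in mesothelial cells and 1 was lower, in each library. Id1, which binds E proteins and keeps them off DNA, held 882 CPM in Tom+ mesothelial and 126 CPM in Tom+ stromal cells, a log2 ratio of 2.81, and of 2.65 in the Tom- library. Id2, of the same family, had log2 ratios of 1.23 and 1.41. Tcf4, an E protein, held 92.8 and 399.8 CPM, a log2 ratio of -2.11, and of -2.05 in the Tom- library. So Tcf4 was lower and Id1 and Id2 were higher in the class in which Tcf21 and Twist2 were low. The other 4 of 7 were past 2-fold in neither direction in each library, and Twist1 was less than 2-fold lower in that class. A link between these genes and the members was not tested. The median log2 ratio of the list was 0.80 and 0.48, beside 0.11 and 0.14 over all genes.

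Of 8 genes listed with the cofactors of GATA factors and of Wt1, 5 were counted between the libraries in stromal and 6 in mesothelial cells. Of these, 0 were past 1.5-fold in either class or direction. With genes of 1 CPM or more counted, 1 of 8 was higher in Tom+ mesothelial cells, where 5.38% of all genes were. Of those counted at 5 CPM, 3 of 6 in the Tom+ and 2 of 6 in the Tom- library were higher in mesothelial cells. Basp1, a corepressor of Wt1, had log2 ratios of mesothelial over stromal of 1.23 and 0.98, and Zfpm1, the GATA cofactor Fog1, 1.89 and 1.78. Gata5, the other one higher, is itself a GATA factor and no cofactor, and was named after its values were seen. Of 12 other SOX genes, 2 of 3 counted in the Tom+ and 3 of 4 in the Tom- library were higher in mesothelial cells. Between the libraries, 0 of 2 counted in stromal and 0 of 4 in mesothelial cells were past 1.5-fold. With genes of 1 CPM or more counted, 2 of 5 were higher in Tom+ stromal cells, where 6.91% of all genes were. Sox6, which acts beside Sox9 in cartilage, held 83.6 and 82.5 CPM in Tom+ and Tom- mesothelial cells and 0.430 and 1.35 CPM in stromal cells, the opposite side to Sox9.

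Of 30 other homeobox genes, 1 of 11 counted in the Tom+ library was more than 2-fold higher in mesothelial cells and 4 were lower, and 1 and 5 of 12 in the Tom- library. Of all genes 13.1% were higher and 10.1% lower in the Tom+ library, and 11.9% and 9.22% in the Tom- library. The higher one was Isl1, a factor of motor neurons and heart progenitors, at 40.3 CPM in Tom- mesothelial and 0.432 CPM in Tom- stromal cells. Tgif1 was lower, at log2 ratios of -1.30 and -1.22. Between the libraries, 0 of 11 counted in stromal and 0 of 10 in mesothelial cells were past 1.5-fold in either direction. With genes of 1 CPM or more counted, 2 of 15 were higher in Tom+ stromal cells, where 6.91% of all genes were. In Tom+ mesothelial cells 2 of 13 were then lower, where 3.33% were. Of 16 Hox genes, 0 were higher and 3 of 10 in the Tom+ and 1 of 10 in the Tom- library lower in mesothelial cells. Hoxb4 was the 1 of 11 past 1.5-fold between the libraries in stromal cells, at 17.7 against 10.2 CPM, and was named after its value was seen.

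Of 41 other lineage factors, 17 of 25 counted in the Tom+ and 15 of 23 in the Tom- library were lower in mesothelial cells. Of all genes 10.1% and 9.22% were lower. In this list 1 and 2 were higher, where 13.1% and 11.9% of all genes were, and the list medians were -1.76 and -1.46. Ebf1, a factor of adipocyte and B cell formation, had log2 ratios of -4.22 and -3.89, and Ebf2, which acts in adipocyte progenitors, -4.51 and -3.85. Hand2, a bHLH factor of heart and limb, was higher, at 71.4 CPM in Tom+ mesothelial and 0.587 CPM in Tom+ stromal cells, log2 ratios of 6.93 and 4.93. The bHLH factors of the lineage lists thus lay on both sides. Between the libraries, 2 of 26 were past 1.5-fold higher in Tom+ stromal cells, Peg3, an imprinted zinc finger gene, at 61.3 against 25.3 CPM, and Eya4, named after its value was seen, at 20.7 against 13.4 CPM. In mesothelial cells Peg3 was the 1 of 20. Of 12 genes of Wt1 and the mesothelial programme, 8 of 9 counted in the Tom+ and 7 of 9 in the Tom- library were higher in mesothelial cells, and the lower one was Tcf21, which is on this list too. The zinc finger gene Bnc1 had log2 ratios of 8.44 and 6.31, and the keratin Krt18 8.37 and 7.05. In stromal cells 1 of 4 was past 1.5-fold between the libraries, Aldh1a2, an enzyme of retinoic acid synthesis, at 15.7 against 31.0 CPM, the same direction as Wt1.

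The genes most like each member in level were sought over 23 groups of 1 stromal cluster in 1 library, by Pearson's r of log2(CPM + 1) among the 2851 genes that averaged 50 CPM or more. The gene most like Sox4 was Klhl24 (0.89). For Wt1 it was Nr4a1 (0.95), an immediate early gene, followed by Slc38a2 and Pdpn. For Tcf21 it was Lgi2 (0.87), for Twist1 Mxra8 (0.97), for Twist2 Ank2 (0.94) and for Prrx1 Islr (0.92). For Sox9 it was Gstm5 (0.90), for Meox2 Nrep (0.87) and for Gata6 Ccdc80 (0.94). Without cluster 3 it was Frmd6 (0.94) for Twist2 and Gpc6 (0.88) for Prrx1. The other members kept the same gene, with r from 0.82 for Tcf21 to 0.95 for Wt1, and 0.91 for Twist1 and 0.88 for Gata6. Among the members, Gata6 and Twist1 were most alike (0.83). Without cluster 3, in which all 9 members had their lowest summed level, their r was 0.59, beside 0.58 for Twist2 and Meox2. With the mesothelial cells of each library added as groups, Sox9 and Twist2 were most alike (0.84). The groups share libraries and depth, so that these values only describe the groups.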

How the data were processed

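Single cells of gWAT were captured with 10x Chromium 3′ chemistry, and the authors aligned reads to mm10 and counted them with Cell Ranger 3.0.2, per the submitters' processing notes. The deposited matrices hold raw UMI counts per gene and barcode, 1 library for Tom+ and 1 for Tom-. A UMI is counted near the 3′ end of a transcript, so that levels of different genes were not compared with each other. Groups were taken from the sample labels. Genes were named by symbol, and the members and gene lists were chosen with earlier results of these data known.

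Counts were summed per library and class and scaled to CPM. A gene whose mean over both sums reached 5 CPM was counted as higher or lower past 1.5-fold between libraries and 2-fold between classes. No test was run with 1 library per condition. Intervals (exact Poisson, conditional binomial and Clopper-Pearson, 95%) cover counting error only. Shares of cells were taken after each cell was thinned to 7563 UMIs (the percentile 10 of depth, seed 0), which left out 271 Tom+ and 647 Tom- stromal cells and 3 and 99 mesothelial cells. Stromal cells were clustered on 2000 variable genes without the members, 30 principal components and 20 neighbours (Leiden, resolution 0.6), and 27 cells fell in no numbered cluster. Doublets were kept in the values given first, and leaving out those called by Scrublet was an alternative. The other alternatives were size factors, limits on genes, mitochondrial UMIs, marker UMIs and low levels, single-cell means, shared barcodes, cells with UMIs of other cell types, and cluster weights. Named genes were the 9 members, at most the 4 genes of each list with the largest ratio past the fold and a mean of at least 20 CPM, and the 3 genes most like each member, of which 1 is not reported here and the text gives those it needs. The lists were bHLH partners and inhibitors, cofactors of GATA factors and Wt1 with Gata5 among them, and SOX, homeobox and Hox genes. Further lists were other lineage factors, and genes of Wt1 and the mesothelial programme.

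Clustering used scanpy 1.11.5, scikit-learn 1.9.0, igraph 0.11.9 and leidenalg 0.10.2, and the rest Python 3.11.15 with scipy 1.17.1, pandas 2.3.3, numpy 2.4.6 and matplotlib 3.10.9. Promoters came from RefSeq (GRCm38.p6) and gene positions from GENCODE.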

Additional observations from a re-analysis of the deposited data

Results flagged for a closer look

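Sox4 and Gata6 were higher in Tom+ than in Tom- stromal cells and lower in Tom+ than in Tom- mesothelial cells. The log2 ratios of Tom+ over Tom- were 1.05 and -0.095 for Sox4 and 0.13 and -0.10 for Gata6. With 1 library per condition the difference between the classes was not tested. The counting interval of the mesothelial ratio of Sox4 held 0. Both ratios of Gata6 were under 1.5-fold, and the median over all genes in stromal cells was 0.071. The mesothelial ratio of Gata6 came to 0.25 without cells with UMIs of other cell types, which kept 22 Tom+ mesothelial cells.

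Over the clusters of stromal cells 6 members had counting intervals wholly above 0 in some clusters and wholly below 0 in others, and the differences between clusters were not tested. Sox4 went from -0.26 in cluster 1 to 0.89 in cluster 9, Sox9 from -1.30 in cluster 6 to 0.64 in cluster 8, and Tcf21 from -1.24 in cluster 6 to 0.47 in cluster 4. Wt1 went from -1.60 in cluster 6 to 0.66 in cluster 4, Prrx1 from -0.58 in cluster 3 to 0.57 in cluster 2, and Meox2 from -2.63 in cluster 4 to 2.16 in cluster 12. Clusters 3 and 6, led by immunoglobulin genes and by Lyz2, gave the low ends of Sox9, Tcf21, Wt1 and Prrx1, and cluster 12 held 8 and 9 UMIs of Meox2.

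Barcodes with up to 1000 genes, which the values of the report leave out and of which an alternative added those with more than 500 genes, held the 9 members too. The members summed to 749 CPM in 1892 Tom+ barcodes and to 884 CPM in 4969 Tom- barcodes. Sox4 held 152 and 210.3 CPM there.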

How the results depend on the processing

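Each of the 2 conditions is 1 library, so that no library could be left out and every value rests on 1 preparation. No paired analysis was possible because the 2 groups share only the replicate number 1. Of 406 ratios recomputed under 13 alternatives, 20 changed sign and 19 crossed the fold, and 8 more could not be had because a class held 0 UMIs. The 1 member lower in Tom+ stromal cells, Wt1, became 0 without the barcodes listed in both libraries (-0.51), as a mean of single-cell CPM (-0.52), without cells with UMIs of other cell types (-0.45), without cells over 1% immunoglobulin UMIs (-0.55), without clusters 3 and 6 (-0.54) and with immunoglobulin genes left out of the totals (-0.56). With equal cluster weights Wt1 changed sign (0.043), the 1 member higher, Sox4, became 0 (0.26), and the 1 lower was Meox2 (-0.78). These weights count cluster 7, with 15 Tom+ cells, as fully as the other clusters. Wt1 held 301 CPM in its Tom+ and 201 CPM in its Tom- cells, so that the sign of Wt1 near 0 is not firm. The Tom+ cluster shares gave 0 higher as well (Sox4 0.23). The 1 member lower in Tom+ mesothelial cells, Tcf21, became 0 without Scrublet doublets (-0.30) and as a mean of single-cell CPM (-0.47), and 2 with mitochondrial UMIs under 5% and without the barcodes listed in both libraries, with Sox9 added (-0.76 and -1.48). The 1 member higher in Tom- mesothelial than stromal cells became 2 without cells with UMIs of other cell types, with Wt1 added (1.005). Sox4 was then no longer 2-fold lower in Tom+ mesothelial cells (-0.80). This alternative kept only 22 Tom+ and 699 Tom- mesothelial cells, and 1427 Tom+ and 4378 Tom- stromal cells. In mesothelial cells 15.6% of all genes were then past 1.5-fold higher in the Tom+ library and 17.5% lower. The causes were not tested. Depth limited Meox2 and Twist2 in the 250 Tom+ mesothelial cells. The 4 alternatives on immunoglobulin RNA, clusters 3 and 6 and the Tom+ cluster shares were chosen after seeing the data.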
